A study of Homo sapiens with 38 samples.

Results

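Metallothioneins are small cysteine-rich proteins that bind zinc and copper. They buffer these metals in the cell, and they also react with oxidants. Their genes lie in a cluster on human chromosome 16. They are known to be induced by zinc and cadmium through the zinc-sensing factor MTF1, which binds metal response elements in their promoters, and by glucocorticoids and oxidant stress.

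The 7 metallothionein genes described here are MT1E, MT1F, MT1G, MT1H, MT1M, MT1X and MT2A. They were chosen by gene symbol, as all probe sets annotated to these symbols, which gave 11 of 54613 probe sets and 7 of 19775 genes. They were measured in IMR90 cells, a human lung fibroblast strain, on Affymetrix arrays made from 1 µg of total RNA. The control cells carried MLP, a retroviral hairpin vector, with no insert. The others carried 1 hairpin, shRB, shp107 or shp130, each against the pocket protein it is named for. Pocket proteins restrain cell cycle genes. Each kind of cell was taken growing (10% serum), after a shift to 0.1% serum (low serum), at confluence, and in senescence brought on by oncogenic ras.

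Experiment 1 had 32 arrays in 16 groups, each hairpin and the vector in each of the 4 states. Experiment 2 had 6 arrays in 3 groups, growing vector, senescent vector and senescent shRB. Every group had 2 arrays, and the labels do not say whether these were separate cultures, and the p-values below rest on a spread between these arrays that may be technical. Hairpins reduce a transcript rather than delete its gene. RB1 fell by 4.05 to 5.32 on the log2 scale with shRB in the 4 states, and RBL2, which encodes p130, fell by 2.35 to 2.88 with shp130 (limma, largest adjusted p = 6.78e-05). In experiment 2 RB1 fell by 2.28. RBL1, which encodes p107, was not called with shp107 in any state (SE 0.54, limma adjusted p from 0.65). Its changes ran from -1.30 in low serum to -0.13 in senescent cells. All 9 fibroblast markers passed the filter. COL1A1, COL1A2, VIM and FN1 had log2 values of at least 11.19 on every array, COL3A1, DCN, LUM and THY1 had lowest values of 8.89, 8.23, 7.50 and 6.94, and PDGFRB ranged from 4.16 to 6.54. In senescent vector cells of experiment 1, 5 of the 9 fell, among them DCN (-2.81) and COL3A1 (-2.21), where 16.2% of all genes fell. In experiment 2 DCN (-3.55) and COL3A1 (-4.19) fell as well, where 20.6% of all genes fell. The epithelial and blood markers had values of at most 3.92, and among endothelial markers TEK reached 9.52.

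The reference held promoters of MT2A, MT1H and MT1X, and these are shown because MT2A and MT1H carried most of the hairpin calls in low serum. Each sequence is the 250 bases before the start site on the plus strand, from RefSeq on GRCh38.p14, at chr16:56608334-56608583 for MT2A, chr16:56669564-56669813 for MT1H and chr16:56682220-56682469 for MT1X. Capitals mark matches on either strand to the metal response element core, searched as TGCACNC and TGCGCNC.
MT2A: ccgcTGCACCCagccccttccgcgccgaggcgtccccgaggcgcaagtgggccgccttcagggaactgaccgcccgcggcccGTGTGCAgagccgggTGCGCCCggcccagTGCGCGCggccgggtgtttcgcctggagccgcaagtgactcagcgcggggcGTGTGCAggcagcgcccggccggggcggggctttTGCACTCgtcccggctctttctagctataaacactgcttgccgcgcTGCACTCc
MT1H: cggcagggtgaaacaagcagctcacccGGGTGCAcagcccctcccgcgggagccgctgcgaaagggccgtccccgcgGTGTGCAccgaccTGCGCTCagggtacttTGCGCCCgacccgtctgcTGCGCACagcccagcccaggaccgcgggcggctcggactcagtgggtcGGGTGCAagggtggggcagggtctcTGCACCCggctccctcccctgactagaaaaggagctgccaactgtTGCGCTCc
MT1X: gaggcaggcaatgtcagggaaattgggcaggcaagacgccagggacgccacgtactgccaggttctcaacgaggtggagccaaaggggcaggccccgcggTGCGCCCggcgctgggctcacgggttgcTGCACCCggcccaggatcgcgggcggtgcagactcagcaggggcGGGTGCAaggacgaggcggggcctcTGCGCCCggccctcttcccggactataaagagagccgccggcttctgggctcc

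The core matched 7 times in the MT2A promoter, 8 times in that of MT1H and 4 times in that of MT1X. Of 35116 promoters taken at the same length, 24.8% held at least 1 match, 0.37% held at least 4, 0.0313% at least 7 and 0.0171% at least 8. The AP-1 motif TGANTCA, searched apart and overlapping none of the capitals, matched once in MT2A, as tgactca, and not in MT1H or MT1X. It was present in 6.57% of the promoters. In the order of the cluster from RefSeq, MT2A precedes MT1E and MT1M, followed by MT1F, MT1G, MT1H and MT1X, with other family genes and pseudogenes between them.

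Values are log2 units of GCRMA expression. Array medians were 3.27 to 3.41, and the highest value on any array was 13.88. Of the 7 genes, 6 passed the filter of a log2 value above 5 on at least 2 arrays of experiment 1. MT1M did not, with values of 1.43 to 3.10, below the lowest array median on every array. Over the 38 arrays the probe set of MT2A ranged from 10.40 to 13.40, near the top of the scale. MT1X ranged from 9.95 to 13.07, MT1H from 8.96 to 12.40, MT1G from 8.73 to 11.48, MT1E from 8.05 to 11.92 and MT1F from 7.60 to 12.11. These ranges compare arrays within a probe set and not genes with each other.

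All 9 probe sets above background carry an x in their identifier, which marks probes shared with other transcripts, and metallothionein genes are close in sequence. Over the 38 arrays the 36 pairs of these probe sets correlated with r from 0.84 to 0.99, with a median of 0.94. The points share the arrays and may share probes, so the 6 genes are not 6 independent measurements. MT1HL1, a related gene outside the list, also has an x probe set, which correlated with the mean of the 6 genes at 0.99 over the 16 group means of experiment 1. The 2 probe sets without an x, those of MT1M and a second one for MT1G (3.04 to 3.65), stayed near or below the array median. A second probe set listed under MT1X has as its target accession the pseudogene MT1L in RefSeq.

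**Figure D1:**
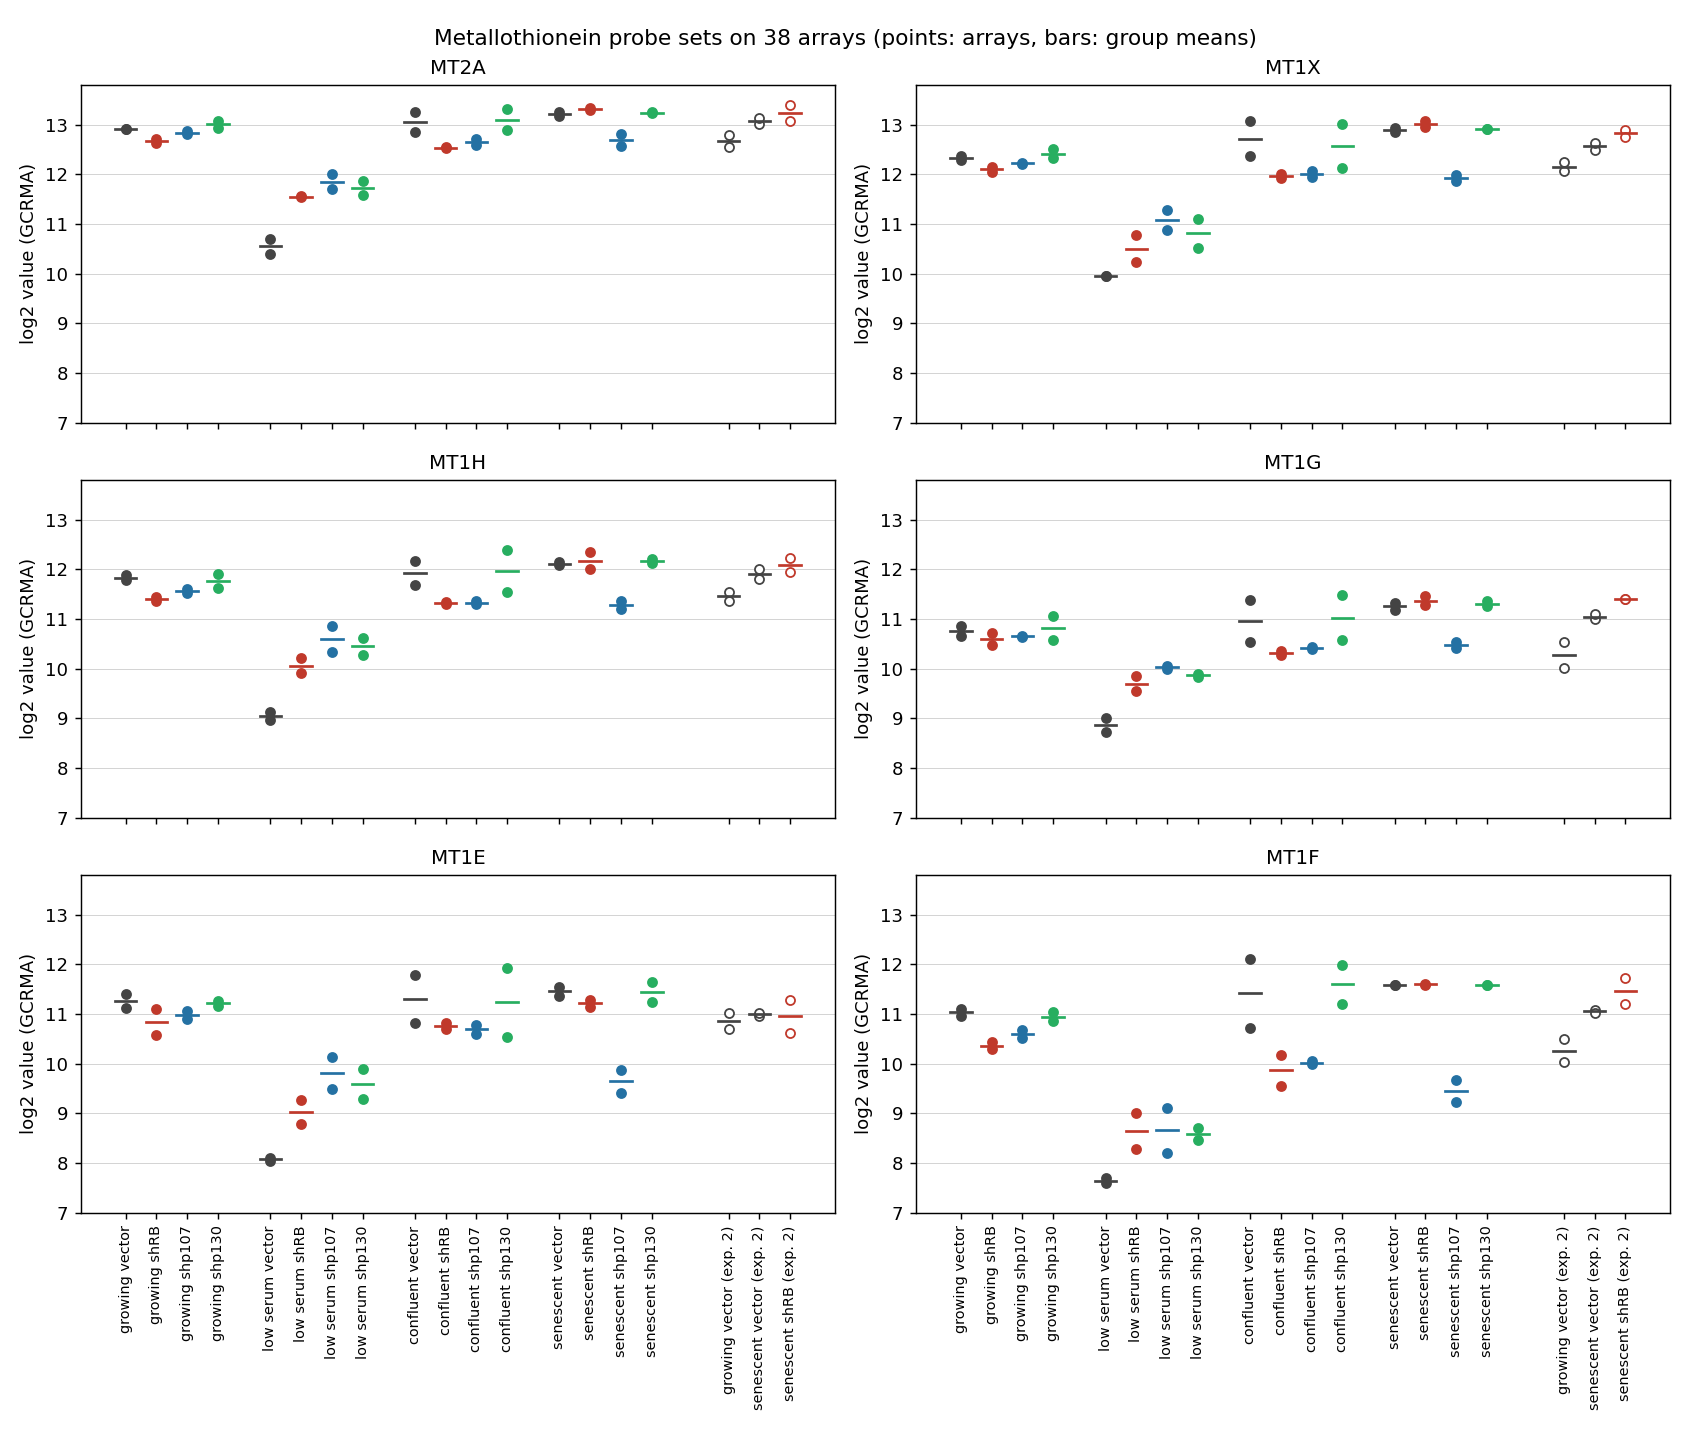
Log2 values of the 6 metallothionein genes that passed the filter, 1 panel per gene, on all 38 arrays. The horizontal axis gives the 19 groups, points are arrays (open for experiment 2) and bars are means of n = 2. The low-serum vector arrays are the lowest of all arrays for every gene shown.

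The metallothioneins were lower in cells kept in low serum than in growing cells. In vector cells all 6 genes fell, against 6.36% of the 8511 genes tested that fell, with a median change of -2.58 against 0.03 over all genes tested. MT1F, MT1E and MT1H had the largest falls.

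MT2A, the main metallothionein of most human cell types, had log2 values of 12.92 and 12.92 on the growing vector arrays and 10.40 and 10.70 in low serum. The groups did not overlap, and the change was -2.37 ± 0.18 (log2 change ± SE, n = 2 per group, limma adjusted p = 4.25e-08), a 5.17-fold fall. MT1H had values of 11.78 and 11.88 against 8.96 and 9.13, a change of -2.79 ± 0.24 (adjusted p = 1.69e-07). MT1X had values of 12.37 and 12.29 against 9.95 and 9.96, a change of -2.38 ± 0.26 (adjusted p = 4.19e-06). In each of these genes both low-serum arrays lay more than 1 unit below both growing arrays. The share of all genes with such a separation was not computed.

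MT1F had values of 11.09 and 10.97 in growing and 7.60 and 7.69 in low-serum vector cells, and fell by 3.39 ± 0.36 (adjusted p = 2.73e-06), the largest fall of the family at 10.5-fold. MT1E went from 11.12 and 11.40 to 8.10 and 8.05, a change of -3.19 ± 0.36 (adjusted p = 6.44e-06). MT1G went from 10.86 and 10.66 to 9.02 and 8.73, a change of -1.88 ± 0.26 (adjusted p = 4.65e-05). The fall of the second probe sets of MT1E and MT1F was 3.13 and 1.94. The MT1X probe set with the MT1L accession fell by 2.66, and MT1HL1 fell by 1.96.

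The fall was also measured within each hairpin. It was called for all 6 genes in shRB cells (median -1.47; 3.54% of all genes fell), for 4 of 6 in shp107 cells (median -1.06; 3.44%) and for 6 of 6 in shp130 cells (median -1.46; 5.09%). In shp107 cells MT1E changed by -1.17 (adjusted p = 0.055) and MT1G by -0.63 (adjusted p = 0.18), and neither was called. Without both low-serum vector arrays, the mean change over the 3 hairpins was still called for all 6 genes, from -0.83 for MT1G to -2.00 for MT1F, with MT2A at -1.12 ± 0.11. Averaged over vector and hairpins, 6 of 6 genes fell with a median of -1.64, against 18.8% of all genes. The vector call held for all 6 genes without any 1 of its 4 arrays.

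Within single hairpins the calls were less stable. In shRB cells the 6 calls became 3 without growing shRB replicate 1, where MT1E (-1.56), MT1F (-1.64) and MT1G (-0.79) were not called. Without low-serum shRB replicate 2 they became 4, and MT1G alone was lost without either of the other arrays. In shp107 cells the 4 calls became 0 without low-serum shp107 replicate 1, where MT2A changed by -0.82 (adjusted p = 0.056), and 2 without either growing shp107 array. In shp130 cells MT1G and MT1E were lost without growing shp130 replicate 2 or low-serum shp130 replicate 1, and MT1G alone without low-serum shp130 replicate 2.

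**Figure D2:**
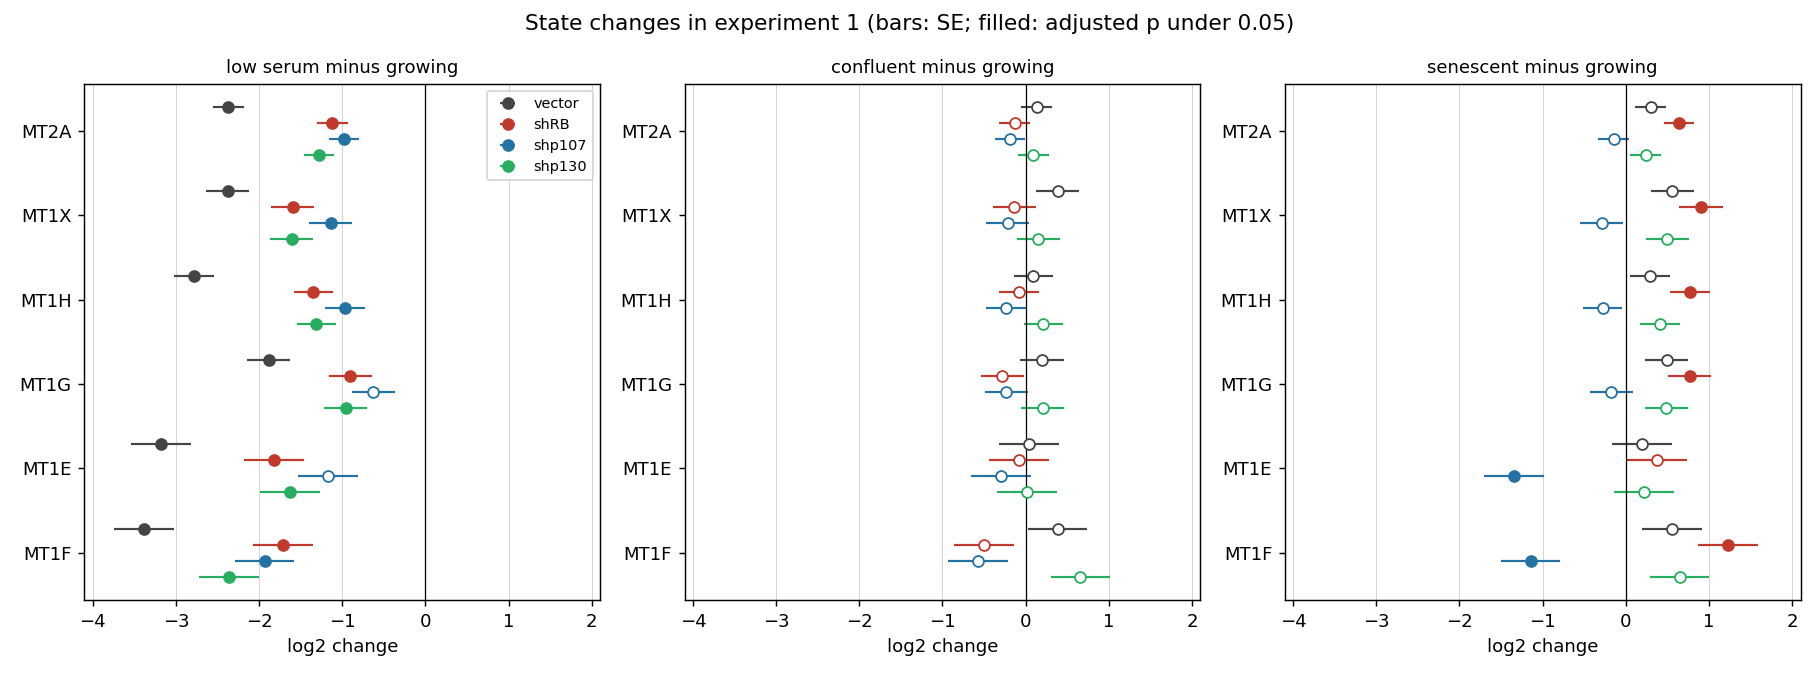
Log2 change from growing to low-serum (left), confluent (middle) and senescent cells (right) in experiment 1, for each gene and each hairpin (colours). Points are changes with n = 2 arrays per group, bars are SE and filled points have an adjusted p under 0.05. All low-serum changes are below 0, and the vector points lie lowest.

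Respiratory chain genes, ribosomal protein genes and other genes of short span moved in the same comparisons. Gene span, which is not transcript length, was under 3 kb for all 6 metallothioneins. The lists below were added after the values were seen. The list called respiratory chain here was taken by gene symbol. It holds genes of NADH dehydrogenase, cytochrome c oxidase and ATP synthase, and not those of the other complexes of the chain. Of its 61 nuclear genes, 25 fell in low-serum vector cells, with a median of -0.76, and 7 of 53 ribosomal protein genes fell (median -0.24). Among the 371 other genes with a span under 3 kb, 64 fell and 6 rose (median -0.28), while the 1652 genes over 100 kb had a median of 0.17. In the hairpin cells, where the metallothionein medians were -1.47, -1.06 and -1.46, the respiratory chain medians were -0.23 with shRB, -0.12 with shp107 and -0.11 with shp130. With the mean of the respiratory chain genes of each array as a covariate, all 6 metallothioneins remained called in low-serum vector cells, with changes from -2.96 to -1.60.

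In low serum the metallothioneins had higher values with each hairpin than with vector. These 3 comparisons share the same 2 low-serum vector arrays. For all 6 genes both hairpin arrays lay above both vector arrays with shRB, shp107 and shp130, which was so for 14.7%, 15.5% and 14.7% of all genes. The calls were few, and they fell on MT2A and MT1H.

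MT2A had 11.56 and 11.55 in low-serum shRB cells, 11.70 and 12.01 with shp107 and 11.58 and 11.87 with shp130, against 10.40 and 10.70 with vector. The rise was 1.00 ± 0.18 with shRB (limma adjusted p = 0.0395), 1.31 ± 0.18 with shp107 (adjusted p = 0.0044) and 1.18 ± 0.18 with shp130 (adjusted p = 0.00663). All hairpin arrays were still below the growing vector arrays. MT1H had 10.21 and 9.92, 10.34 and 10.86, and 10.29 and 10.61 with shRB, shp107 and shp130, against 8.96 and 9.13. It rose by 1.55 ± 0.24 with shp107 (adjusted p = 0.00867) and 1.40 ± 0.24 with shp130 (adjusted p = 0.0118). With shRB it changed by 1.02 (adjusted p = 0.13).

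The share of all genes called higher was 0.0587% with shRB, 0.0235% with shp107 and 0.235% with shp130. MT2A was thus 1 of 5 genes that rose with shRB, and MT2A and MT1H were the only 2 of 8511 genes that rose with shp107 in low serum by this fit. MT1E had the largest change with shp107, 1.74 ± 0.36 (adjusted p = 0.079), and with shp130, 1.52 ± 0.36 (adjusted p = 0.080), and was not called. MT1F, MT1G and MT1X changed by 0.56 to 1.15 and were not called. The median change of the 6 genes was 0.97, 1.23 and 1.08 with the 3 hairpins, against -0.04, -0.05 and -0.04 over all genes. The second MT1F probe set changed by only 0.24, 0.27 and 0.61, and that of MT1E by 1.35, 1.53 and 1.35.

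These calls depended on single arrays. For MT2A with shRB the call was lost without any 1 of the 4 arrays (adjusted p from 0.062 to 0.19). With shp107 both calls were lost without low-serum vector replicate 1 (MT2A 1.16, adjusted p = 0.066; MT1H 1.47, adjusted p = 0.081) or without low-serum shp107 replicate 2 (MT2A 1.15, adjusted p = 0.44). With shp130 both were lost without low-serum shp130 replicate 2 (MT2A 1.03, adjusted p = 0.30), and MT1H also without either vector array. The difference from the hairpin's effect in growing cells was called for 0 of 6 genes with each hairpin (smallest adjusted p 0.77, 0.11 and 0.54), as for 0%, 0% and 0.0117% of all genes. At an unadjusted p under 0.05 it held for 6, 6 and 5 of the 6.

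The respiratory chain genes moved the same way in these comparisons. Their medians were 0.46, 0.55 and 0.62 with shRB, shp107 and shp130 in low serum, with 0, 0 and 6 of 61 called higher, and those of ribosomal protein genes were 0.25, 0.21 and 0.26. The respiratory chain mean was 9.98 and 9.67 on the low-serum vector arrays and 10.16 to 10.46 on the hairpin arrays. With that mean as a covariate the medians of the metallothioneins were 0.70, 1.07 and 0.86, and 0 of 6 were called with any hairpin (smallest adjusted p 0.072).

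**Figure D3:**
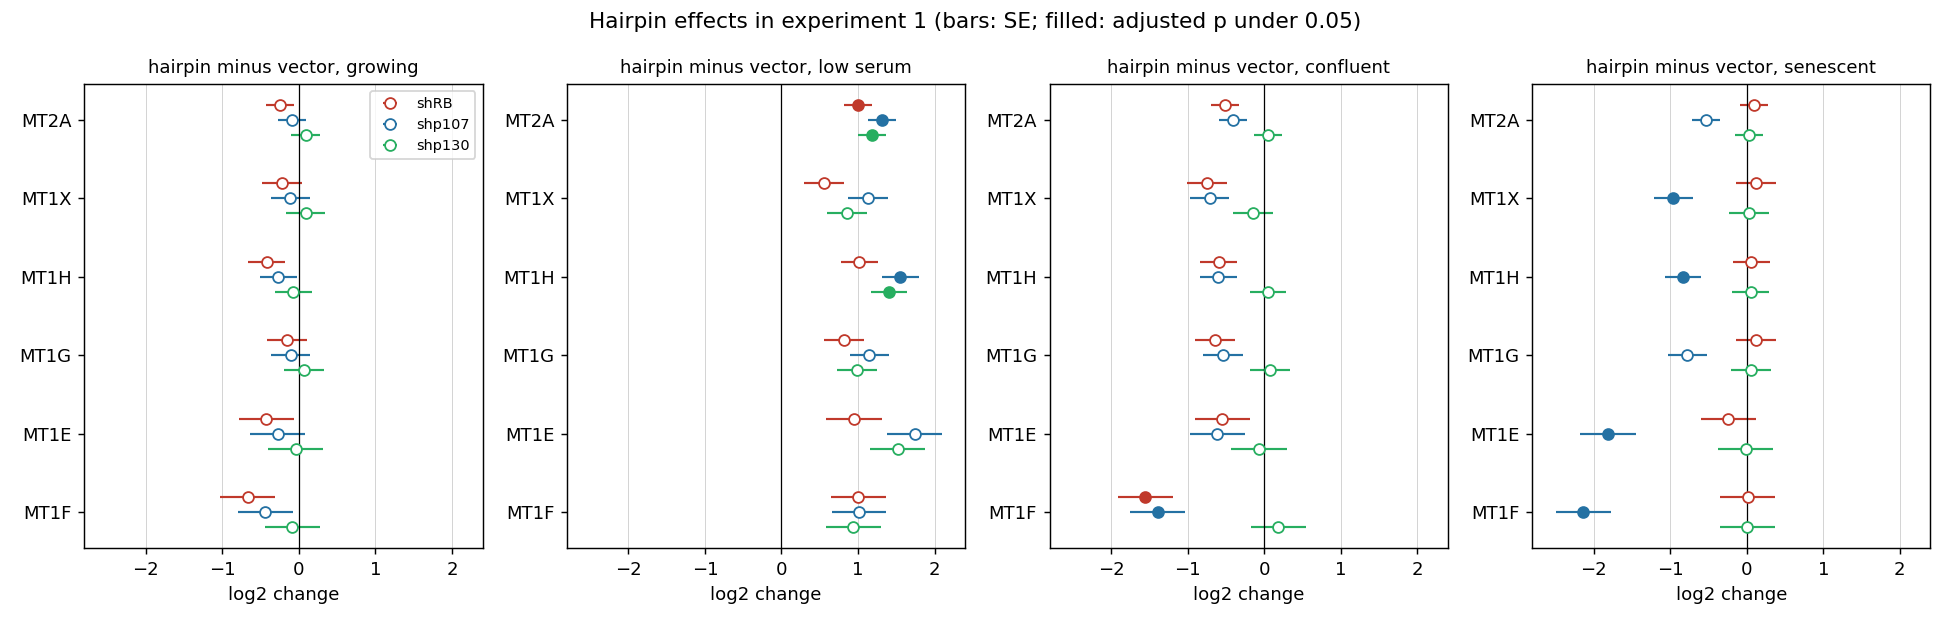
Log2 change from vector to each hairpin (colours) in the 4 states of experiment 1 for the 6 genes. Points are changes with n = 2 arrays per group, bars are SE and filled points have an adjusted p under 0.05. All low-serum points lie above 0, and the senescent shp107 points lie below 0.

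In growing cells no metallothionein was called with any hairpin, with changes from -0.67 (MT1F with shRB) to 0.09 (limma, smallest adjusted p 0.88, with 0 at an unadjusted p under 0.05). Over all genes 16, 0 and 5 of 8511 were called in either direction with shRB, shp107 and shp130 (0.188%, 0% and 0.0587%). Both shRB arrays lay below both growing vector arrays for 5 of the 6 metallothioneins, and both shp107 arrays for 6 of 6, as for 17.8% and 15.1% of all genes.

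In confluent vector cells the metallothioneins were measured near their level in growing cells. MT2A had 13.25 and 12.85 at confluence against 12.92 and 12.92 in growing cells, and MT1F 12.11 and 10.72 against 11.09 and 10.97. None of the 6 was called (changes from 0.04 to 0.39, limma adjusted p from 0.30, 0 at an unadjusted p under 0.05), while 25.1% of all genes were called. Without confluent vector replicate 2 MT1F was called, at 1.08 (adjusted p = 0.035). Compared directly, all 6 genes were higher in confluent than in low-serum vector cells, by 2.08 to 3.77 (largest adjusted p 4.87e-06; 8.31% of all genes were called higher).

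The 2 confluent vector arrays differed in the same direction for all 9 probe sets, with replicate 1 higher by a median of 0.80. In confluent shp130 cells the median of replicate 1 minus replicate 2 was -0.90, so there replicate 2 was the higher. At confluence both shRB and both shp107 arrays lay below both vector arrays for all 6 genes, which was so for 30.0% and 24.2% of all genes. MT1F had 9.55 and 10.18 with shRB and 10.06 and 9.98 with shp107, against 12.11 and 10.72 with vector. It fell by 1.55 ± 0.36 with shRB (adjusted p = 0.00434; 10.5% of all genes fell) and by 1.39 ± 0.36 with shp107 (adjusted p = 0.0105; 6.17% fell). The other 5 changed by -0.74 to -0.40 and were not called, and with shp130 none was called (-0.15 to 0.19; 0.0235% of all genes).

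Neither MT1F call held without confluent vector replicate 1, where the changes were -0.86 (adjusted p = 0.15) with shRB and -0.70 (adjusted p = 0.29) with shp107. The shRB call was also lost without confluent shRB replicate 1, and the shp107 call without either confluent shp107 array. Without confluent vector replicate 2, 5 genes were called with shRB and 4 with shp107. Against confluent shp130, MT1F fell with shRB by 1.74 and with shp107 by 1.58, and MT2A with shRB by 0.56 (11.1% and 7.48% of all genes were called lower). The calls of MT2A with shRB and of MT1F with shp107 were lost without confluent shp130 replicate 2, and that of MT2A also without either confluent shRB array. Without confluent shp130 replicate 1 all 6 genes were called in both comparisons. The respiratory chain medians here were 0.08 for shRB and 0.12 for shp107 against vector. With the respiratory chain covariate the metallothionein medians were -0.65 and -0.68. Confluent shp130 replicate 1, the lower of its pair for the metallothioneins, had a respiratory chain mean of 9.95, against 10.34 for replicate 2. The part of these values in the result was not tested.

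In ras-senescent vector cells the metallothioneins had values at or above those of growing cells. In experiment 1 MT2A had 13.25 and 13.18 against 12.92 and 12.92, and MT1X had 12.93 and 12.85 against 12.37 and 12.29. For both genes the senescent arrays were all above the growing ones. The share of all genes with such separation was not computed, so it is not read as a result. The changes of the 6 genes ran from 0.19 (MT1E) to 0.56 (MT1X ± 0.26, limma adjusted p = 0.13) and 0 were called, 1 at an unadjusted p under 0.05, while 9.21% of all genes rose. The intervals of these changes reached 1.30 for MT1F. The probe set with the MT1L accession rose by 1.11 ± 0.37 (adjusted p = 0.036, over all probe sets).

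Experiment 2 repeated the comparison. MT1G had 11.01 and 11.09 in senescent against 10.53 and 10.02 in growing vector cells, a rise of 0.78 ± 0.20 (adjusted p = 0.016). MT1F had 11.09 and 11.03 against 10.49 and 10.04, a rise of 0.79 ± 0.23 (adjusted p = 0.026). The other 4 changed by 0.13 to 0.45 and were not called, and 18.7% of all genes rose. Both calls were lost without growing vector replicate 2 of experiment 2 (MT1G 0.52, MT1F 0.56) or without either senescent vector array. The second MT1F probe set and that with the MT1L accession rose by 1.17 and 1.02 in experiment 2. The difference between the experiments was called for 0 of 6 genes (-0.16 to 0.28, adjusted p from 0.83, 0 at an unadjusted p under 0.05), and for 1.5% of all genes.

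With shRB the rise from growing to senescent cells was called for 5 of 6 genes in experiment 1, from 0.64 (MT2A) to 1.23 (MT1F), against 12.4% of all genes, and MT1E changed by 0.38. These 5 calls became 2 without growing shRB replicate 1, 1 without growing shRB replicate 2 and 0 without senescent shRB replicate 2. With shp130 the 6 changes were 0.22 to 0.65 and none was called, while 12.6% of all genes rose. With shp107 MT1E fell by 1.34 and MT1F by 1.14, against 21% of all genes, and both calls were lost without senescent shp107 replicate 2. With the respiratory chain covariate 0 were called there, and the median of the 6 genes turned from -0.28 to 0.11. Averaged over vector and hairpins MT1G, MT1H, MT1X and MT2A rose, by 0.26 to 0.42, against 24.3% of all genes. The MT1H call was lost without any 1 of 11 of the 16 growing and senescent arrays, and the other 3 were kept. Compared with low serum, all 6 genes were 2.38 to 3.94 higher in senescent vector cells (8511 genes, 15.2% called higher), and 0 of 6 differed between senescent and confluent vector cells (0.16 to 0.30, adjusted p from 0.41, 0 at an unadjusted p under 0.05; 33.4% of all genes).

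Senescent cells with shp107 had lower metallothionein values than senescent vector cells. In this comparison RBL1, the target of the hairpin, changed by only -0.13 (limma adjusted p = 0.93). MT1F had 9.67 and 9.23 against 11.59 and 11.58, a fall of 2.13 ± 0.36 (limma adjusted p = 0.000686), or 4.39-fold. MT1E had 9.87 and 9.41 against 11.36 and 11.55, a fall of 1.81 ± 0.36 (adjusted p = 0.00306). The 2 shp107 arrays lay below both vector arrays for all 6 genes, as for 16.1% of all genes.

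MT1X fell from 12.93 and 12.85 to 11.99 and 11.87 (-0.96 ± 0.26, adjusted p = 0.0246) and MT1H from 12.10 and 12.14 to 11.37 and 11.20 (-0.83 ± 0.24, adjusted p = 0.0344). MT1G changed by -0.77 (adjusted p = 0.072) and MT2A by -0.53 (adjusted p = 0.083), and they were not called. In all, 4 of 6 genes fell against 5.1% of all genes, with a median of -0.90 against 0.11. The second probe sets of MT1E and MT1F fell by 1.73 and 1.70, and the probe set with the MT1L accession fell by 1.39. Against senescent shRB and senescent shp130 cells all 6 genes were lower with shp107, with shRB minus shp107 from 0.63 to 2.14 and shp107 minus shp130 from -2.14 to -0.56 (11.6% and 8.1% of all genes were called in these directions).

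MT1F remained called without any 1 of the 4 arrays, and MT2A was called without senescent shp107 replicate 1 (-0.65, adjusted p = 0.04). Without senescent shp107 replicate 2, MT1E changed by -1.58 (adjusted p = 0.078), MT1X by -0.90 (adjusted p = 0.21) and MT1H by -0.75 (adjusted p = 0.27). MT1X and MT1H were also lost without either senescent vector array. Without the same shp107 array only MT1F kept its call against shRB and against shp130, and with the respiratory chain covariate described next 0 of 6 were called in either comparison (medians 0.52 for shRB minus shp107 and -0.45 for shp107 minus shp130). Against shp130 the calls of MT1G, MT1H, MT1X and MT2A were lost without either shp130 array, and against shRB those of MT1G, MT1H and MT2A without shRB replicate 2 and that of MT2A without shRB replicate 1.

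The shp107 effect in senescent cells minus that in growing cells was called for 0 of 6 metallothioneins, against 1.17% of all genes. Its median was -0.76 (limma, smallest adjusted p 0.13), with 3 at an unadjusted p under 0.05. Against low serum instead, a contrast added after the values were seen, the difference was called below 0 for 6 of 6 metallothioneins (median -2.24). This was so for 3.75% of all genes, and for 0 of 6 metallothioneins with the respiratory chain covariate described next.

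Respiratory chain genes, ribosomal protein genes and genes of short span fell widely in the same comparison of senescent shp107 with vector cells. Of the 61 respiratory chain genes 42 fell, with a median of -1.28, larger than the metallothionein median of -0.90. Of 53 ribosomal protein genes 31 fell (median -0.65), and of the 371 other genes with a span under 3 kb, 85 fell and 2 rose (median -0.40), while genes over 100 kb had a median of 0.24. The respiratory chain mean was 9.85 and 8.98 on the 2 senescent shp107 arrays, replicate 2 being the lower, against 10.52 and 10.59 on the senescent vector arrays. With that mean as a covariate 0 of 6 metallothioneins were called (median -0.43, smallest adjusted p 0.50, MT1F -1.45). Beyond this covariate, the part of these values in the result was not tested. The RNA quality of the senescent shp107 and low-serum vector arrays, on which genes of short span were low together, was not examined. Some arrays of other groups had a respiratory chain mean near that of low-serum vector replicate 1 (9.98). This mean was 9.95 on confluent shp130 replicate 1. In experiment 2 it was 9.93 on growing vector replicate 2 and 9.99 on senescent shRB replicate 2. The RNA quality of these arrays was not examined either.

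With shRB and shp130 no metallothionein differed from vector in senescent cells by the test. The changes were -0.24 to 0.12 with shRB and -0.01 to 0.06 with shp130 (limma, smallest adjusted p 0.79 and 0.99, 0 at an unadjusted p under 0.05), while 9.75% and 1.67% of all genes were called. For MT2A the 95% interval of the change was -0.29 to 0.48 with shRB and -0.36 to 0.41 with shp130. In experiment 2 the changes with shRB were -0.04 to 0.40, with 0 called and 0 at an unadjusted p under 0.05, while 20.1% of all genes were called. MT1M, tested there without the filter, had values of 2.34 and 2.32 with vector and 3.05 and 3.10 with shRB, all below the array medians.

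**Figure D4:**
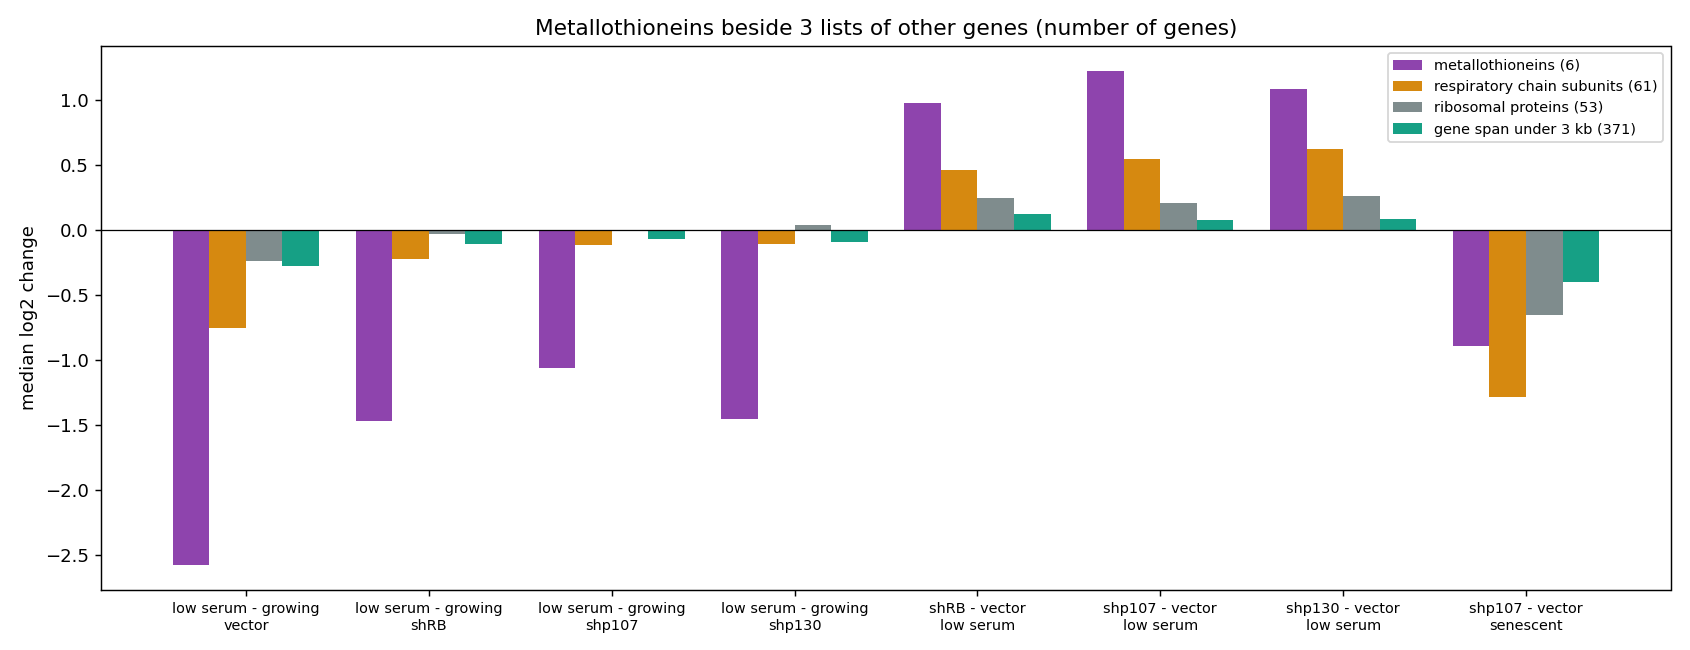
Median log2 change of the 6 metallothioneins (purple), 61 respiratory chain genes, 53 ribosomal protein genes and 371 other genes with a span under 3 kb, in 8 comparisons on the horizontal axis. Bars start at 0. The metallothionein bar is the longest in the first 7 comparisons, and the respiratory chain bar is the longest in senescent shp107 cells.

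Across the 16 group means of experiment 1, low-serum vector was the lowest group for all 6 genes and the other low-serum groups came next for MT2A, MT1X, MT1H, MT1G and MT1F. For MT1E senescent shp107 cells, at 9.64, lay between low-serum shp107 and low-serum shp130 cells. MT2A ran from 13.31 in senescent shRB cells to 10.55, with 11.86, 11.73 and 11.55 in low-serum shp107, shp130 and shRB cells. In this order the arrays of shp107 and shp130 overlapped and those of shRB lay below both. MT1F ran from 11.60 in confluent shp130 cells to 7.65, and its senescent shp107 mean of 9.45 lay next above the low-serum groups. At the top of the order of MT2A, senescent shp130, senescent vector, confluent shp130, confluent vector and growing shp130 cells each overlapped with the next.

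Apart from the related MT1HL1 described above, the genes with the pattern most like the mean of the 6 metallothioneins over these 16 means were NDUFV2, a respiratory chain subunit (Pearson r = 0.91), BAZ1A (0.90), CYBA (0.89), METTL23 (0.89) and STC1, a secreted glycoprotein (0.88). STC1 was 10.82 in growing, 4.75 in low-serum and 12.79 in senescent vector cells. The most opposed were BMPER (-0.92), SCD, the stearoyl-CoA desaturase (-0.92), KLHL12 (-0.92), TOX-DT (-0.92) and MAMLD1 (-0.91). SCD was 9.21, 12.15 and 8.85 in the same groups. These correlations describe group means that share arrays and the low-serum groups, and carry no test.

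The regulator MTF1 was read here by its brightest probe set only. That probe set did not change as the metallothioneins did in vector cells, which does not settle the gene as a whole. That probe set had values of 4.92 to 7.01, near the filter. The other MTF1 probe sets ranged from 4.51 to 6.73 and from 3.92 to 5.12, and their changes are not given here. The brightest probe set rose in confluent vector cells by 1.16 ± 0.33 (limma adjusted p = 0.0136) and in senescent vector cells by 1.13 ± 0.33 (adjusted p = 0.0151) and, in experiment 2, by 1.05 ± 0.22 (adjusted p = 0.00607). In low serum it changed by 0.46 (adjusted p = 0.38). Of 24 zinc transporter genes 16 were tested. In low-serum vector cells 3 rose, among them SLC30A4 by 1.29 and SLC39A11 by 0.89, 1 fell (SLC39A10 by 0.88) and 12 were not called. The median of the list was 0.21 against 0.03 over all genes. For this and the following lists, 6.69% of all genes rose and 6.36% fell in low-serum vector cells, and 9.21% rose and 16.2% fell in senescent vector cells of experiment 1. In senescent vector cells 1 rose (SLC30A7 by 0.82) and 3 fell, and in experiment 2 the zinc importers SLC39A8 and SLC39A14 rose by 2.16 and 1.08 while SLC39A11 and SLC30A6 fell by 1.13 and 0.70. Over all genes 18.7% rose and 20.6% fell in that comparison. With the hairpins in low serum 0 of 16 were called.

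Of 12 copper handling genes tested, 0 were called in low-serum vector cells. In senescent vector cells 4 rose, SCO2 by 1.51, SLC31A2 by 1.12, STEAP3 by 1.04 and the copper importer SLC31A1 by 1.00, and 1 fell, the lysyl oxidase LOX by 0.90. In senescent shp107 cells 3 fell against vector and 0 rose (5.1% and 2.74% of all genes), namely the copper chaperone ATOX1 by 2.62, COMMD1 by 1.03 and the superoxide dismutase SOD1 by 0.99.

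Among 20 tested genes of the oxidant response, low-serum vector cells showed 2 that fell and 2 that rose. HMOX1, the heme oxygenase that metals also induce, fell by 1.93 and NQO1 by 0.98, while GCLC rose by 1.33 and NFE2L2 by 0.80. In senescent vector cells 5 fell and 0 rose, among them the cystine transporter SLC7A11 by 2.72. Of 10 glucocorticoid response genes in low-serum vector cells 3 fell (KLF9 by 1.08, ERRFI1 by 0.87, DUSP1 by 0.85) and TSC22D3 rose by 1.51. Of 9 heat shock genes HSPE1 fell by 1.09. Of the 10 genes next to the cluster on the chromosome, 0 were called in low-serum vector cells (median 0.19) or with any hairpin against vector in low serum. From growing to low serum averaged over vector and hairpins, 6 of the 10 were called, BBS2, HERPUD1 and LPCAT2 higher by 0.40 to 0.79 and CPNE2, NUP93 and PSME3IP1 lower (-0.80 to -0.57), where 19.2% of all genes rose and 18.8% fell. In shp107 cells alone 1 of the 10 fell in low serum, where 3.44% of all genes fell. In senescent shp107 cells 3 of these neighbours rose against vector, CES1 by 1.40, NUP93 by 1.32 and BBS2 by 1.02. Over all genes 2.74% rose in that comparison.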

How the data were processed

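Expression was read on 38 Affymetrix arrays of IMR90 cells. The log2 values were used as deposited, and per the submitters' processing notes the authors computed them by GCRMA. No source used here says whether the arrays went through that step as 1 set. A gene's value is that of its brightest probe set by mean over all arrays, among those that name the gene alone. Testing covered the 8511 genes that passed log2 5 on 2 or more arrays of experiment 1. The fits used limma 3.58.1 (R 4.3.3) with a mean for each group and eBayes, 1 fit per experiment, and the difference between experiments came from a fit of all 38 arrays. Benjamini-Hochberg adjustment was made within a contrast, and called means an adjusted p below 0.05. Errors after ± are standard errors, and precision is limited by having few arrays. The members and lists were chosen with earlier results of these data known. Named genes were all members, the 5 genes most and the 5 least correlated with their mean, and called list members, at most 4 per comparison. Alternatives were other probe sets, filters, normalizations and fits, and leaving out each array. The code was tested on simulated data.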

Additional observations from a re-analysis of the deposited data

Results flagged for a closer look

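The measured effect of shp107 differed between senescent and low-serum cells for all 6 metallothioneins. This contrast was added after the values were seen, so its p-values are no separate test of the difference. The planned contrast, senescent minus growing cells, was called for 0 of 6, against 1.17% of all genes. The shp107 effect in senescent cells minus that in low serum was -3.55 ± 0.51 for MT1E (log2, limma adjusted p = 0.000147), -3.15 ± 0.51 for MT1F (adjusted p = 0.000446) and -2.39 ± 0.34 for MT1H (adjusted p = 0.000126). It was -2.08 ± 0.37 for MT1X (adjusted p = 0.00118), -1.92 ± 0.37 for MT1G (adjusted p = 0.00233) and -1.84 ± 0.26 for MT2A (adjusted p = 0.00012). Both hairpin arrays were above both vector arrays in low serum and below them in senescent cells for 6 of 6 genes. Taken alone, these conditions held for 15.5% and 16.1% of all genes, and the share meeting both was not computed. The same contrast was called for 3.75% of all genes in this direction, and for 0 of 6 metallothioneins with shRB or shp130 (smallest adjusted p 0.088 and 0.081). All 6 calls held without any 1 of the 8 arrays. With the respiratory chain mean of each array as a covariate 0 of 6 were called (median -1.61, smallest adjusted p 0.23). RBL1, the target of shp107, was not called against vector in either state. It changed by -0.13 in senescent and by -1.30 in low-serum cells.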

How the results depend on the processing

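Of 522 recomputed values of the 29 called changes of single genes, 459 stayed called in the same direction, 63 lost the call and 0 turned. The fall in low-serum vector cells was called for 6 of 6 genes under each alternative run but 1. With probe sets without x where there is one, it was called for 5, since that of MT1G lies at background and did not pass the filter. With all probe sets tested, 1 gene was called in senescent vector cells of experiment 1. Over the 4 states, the 2 shRB calls became 4 with quantile normalization, with 1 fit over 38 arrays or with a trended, robust eBayes. Fits of the compared groups alone gave 0 calls with shRB, shp107 and shp130. The 7 shp107 calls became 13 with the trended, robust fit and 1 with the respiratory chain covariate, added after seeing the data, and the 2 shp130 calls became 0 with it. Differences of hairpin effects between states, 0 as planned, became 3 with the trended, robust fit and 6 for senescent minus low serum. In experiment 2 the 2 senescence calls became 1 with probe sets without x or with 1 fit over 38 arrays, 5 with the trended, robust fit and 4 with the covariate. The 0 calls of shRB there became 1 without a filter, which was MT1M, and 2 with the covariate. Fits of the compared groups alone have fewer samples, and the other causes were not tested.

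Leaving out 1 array gave 6 to 6 calls for low serum in vector cells and on average, 0 to 1 for confluence in vector cells and 0 to 0 on average. For senescence it gave 0 to 0 in vector cells, 3 to 4 on average and 0 to 2 in experiment 2. For hairpins it gave 1 to 6 (shRB), 4 to 13 (shp107), 0 to 4 (shp130), 0 to 3 (differences between states) and 0 to 0 (shRB in experiment 2). A lone array left in a group was assumed to vary like the other groups.

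Same-numbered arrays had a median correlation of deviations of 0.041 over 120 pairs of groups (-0.38 to 0.49). Of these pairs 38 were above 0.1 and 17 under -0.1. A median over all pairs cannot decide whether the numbers pair the samples within some of the groups. With the replicate number as a block the counts were the same, with 6 calls in low-serum vector cells. Having 2 arrays per group and shared probes limit the precision, and MT1M and the second MT1G probe set lie near background, where a change could not be measured.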
